A study of Mus musculus with 1814 samples.

Results

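The mitotic kinesins examined here are 10 genes, Kif11, Kif14, Kif15, Kif18b, Kif20a, Kif20b, Kif22, Kif23, Kif2c and Kif4. They were taken by name. All 10 were present among the 25125 genes of the table with experiments 1, 3 and 4 and among the 15177 genes of the table of experiment 5. The series, whose title concerns cyclin D3 and cell cycling in the dark zone, measured RNA of single germinal center B cells of mice, index-sorted into plates. Libraries were made by SmartSeq2, which reads whole transcripts and carries no molecular identifiers. Of 1814 deposited wells, 1338 cells entered the values below. In experiment 1, light zone wells at 12 h were either Dec+ or Dec- (80 cells), and a separate plate gave 42 Dec+ dark zone cells at 30 h (wells of that plate labelled PB were not used). Experiments 3 and 4 gave Dec+ cells of the dark and light zone at 12, 30, 46 and 60 h (353 cells in experiment 3, 6 of them without a zone). Experiment 5 gave WT, KO and TA cells of both zones (373 cells, 4 without a group), and its grouped cells were Dec+. The labels define neither Dec nor the event from which hours were counted, they do not say how KO and TA differ from WT, and they name no animal, age or strain.

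Kinesins are motor proteins that move along microtubules with energy from ATP, and a subset of them is made mainly in dividing cells. Germinal center B cells alternate between a light zone, in which they are selected with the help of T cells, and a dark zone, in which they divide. Mitotic kinesins build the spindle, move and attach chromosomes, and serve in cytokinesis. Kif11 slides antiparallel microtubules apart to make the spindle bipolar, and Kif15 can hold the spindle in that state beside it. Kif2c removes subunits from microtubule ends and corrects faulty attachments, and Kif18b controls the plus ends of astral microtubules. Kif22 and Kif4 bind chromosome arms, and Kif4 also acts at the central spindle. Kif23 is the motor of centralspindlin, Kif20a brings the chromosomal passenger complex to the central spindle, and Kif14 and Kif20b act at the midbody in cytokinesis.

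Genes of late cell cycle phases often carry a CHR element, bound by the DREAM and MuvB complexes, and CCAAT boxes, bound by NF-Y, in their promoters. RefSeq promoters (GRCm38.p6, 250 bases before to 50 bases after the start of transcription) were matched for 9 of the 10 genes. The CHR was searched as TTTGAA or TTCGAA and the CCAAT box as CCAAT, each on both strands, and the motifs did not share letters. A CHR was found in 9 of the 9 promoters and in 19.2% of all 32851 promoters of that length. A CCAAT box was found in 6 of 9 (not in Kif15, Kif20b and Kif2c) and in 37.4% of all promoters. Both were found in 6 of 9 and in 7.52% of all. With a window chosen after the positions were seen, 7 of the 9 genes (77.8%) had a CHR that began within 25 bases of the start, against 2.64% of all promoters. The exceptions were Kif14 and Kif2c, with a CHR at -228 and -103. For these genes the RefSeq start lay 1505 and 3867 bases downstream of the outer end of the GENCODE gene. The sequences below show the range of arrangements, 5′ to 3′ on the strand of the gene, with both motifs in capitals on whichever strand they were found. Kif23 (chr9:61946750-61947049, minus strand) has a CCAAT box and a CHR within 10 bases of the start. Kif11 (chr19:37376132-37376431, plus strand) has the CHR at -19 on the opposite strand and the box at -45. Kif18b (chr11:102925075-102925374, minus strand) has boxes at -53 and -30 and the CHR at 4. Kif20b (chr19:34922108-34922407, plus strand) has CHRs at 8 and 14 and no box. Kif2c (chr4:117178723-117179022, minus strand) has the distant CHR. Such matches describe letters, and binding was not measured.
Kif23: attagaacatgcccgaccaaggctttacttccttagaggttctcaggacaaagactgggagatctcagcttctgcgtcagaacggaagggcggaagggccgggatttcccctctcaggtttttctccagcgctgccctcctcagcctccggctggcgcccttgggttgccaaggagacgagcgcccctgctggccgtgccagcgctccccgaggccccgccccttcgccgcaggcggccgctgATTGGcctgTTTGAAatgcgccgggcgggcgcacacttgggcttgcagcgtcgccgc
Kif11: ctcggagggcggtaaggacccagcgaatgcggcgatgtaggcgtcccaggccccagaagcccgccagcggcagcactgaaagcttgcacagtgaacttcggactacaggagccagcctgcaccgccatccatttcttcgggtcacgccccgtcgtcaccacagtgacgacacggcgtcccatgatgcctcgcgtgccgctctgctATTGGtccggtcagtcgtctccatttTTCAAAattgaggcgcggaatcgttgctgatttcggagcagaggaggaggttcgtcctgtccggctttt
Kif18b: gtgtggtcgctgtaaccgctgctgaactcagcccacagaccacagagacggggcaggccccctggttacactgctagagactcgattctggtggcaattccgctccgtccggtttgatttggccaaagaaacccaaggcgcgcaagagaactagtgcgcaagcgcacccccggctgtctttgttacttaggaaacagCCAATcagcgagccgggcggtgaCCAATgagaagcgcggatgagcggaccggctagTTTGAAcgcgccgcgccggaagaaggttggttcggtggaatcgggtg
Kif20b: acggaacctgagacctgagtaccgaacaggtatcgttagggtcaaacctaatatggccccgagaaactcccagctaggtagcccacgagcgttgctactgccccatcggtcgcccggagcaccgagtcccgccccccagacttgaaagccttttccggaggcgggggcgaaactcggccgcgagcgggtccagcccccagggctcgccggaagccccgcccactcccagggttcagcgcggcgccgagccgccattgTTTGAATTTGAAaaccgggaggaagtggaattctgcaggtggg
Kif2c: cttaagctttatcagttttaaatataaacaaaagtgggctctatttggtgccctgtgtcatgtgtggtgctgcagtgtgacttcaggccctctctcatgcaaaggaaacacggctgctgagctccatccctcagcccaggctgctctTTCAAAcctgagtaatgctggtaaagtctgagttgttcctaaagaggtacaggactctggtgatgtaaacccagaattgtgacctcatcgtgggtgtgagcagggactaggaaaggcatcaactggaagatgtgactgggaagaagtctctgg

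Counts per cell had medians of 417105, 210350, 292109 and 155485 in experiments 1, 3, 4 and 5, and were at least 1300 in every cell. Values are CPM, the counts of a gene in a sum of cells scaled to a fixed total, and a sum of few cells can rest on a few of them. The labelled cell type was checked by markers. B cell markers summed to 4457 to 7844 CPM and germinal center B cell markers to 1233 to 2692 CPM over the groups, and none of either list was at 0 in any group. T cell markers summed to 64.03 to 349 CPM, with from 0 to 7 of 8 at 0. The highest sum was that of KO dark zone cells, with 0 of the 7 markers in their table at 0. Myeloid markers summed to at most 37.2 CPM, in KO light zone cells, with up to 7 of 7 at 0. The table of experiment 5 held 3 of these 7. Plasma cell markers, which include Irf4 and Xbp1, summed to 1320 to 5585 CPM in dark zone groups and 623 to 4116 CPM in light zone groups. KO dark zone cells had the 5585 CPM, against 2566 CPM in WT dark zone cells. The part of these other cell types in the results below was not tested. Median mitochondrial reads were 11.2%, 1.41%, 4.07% and 7.44% in experiments 1, 3, 4 and 5. No pair of cells had identical columns.

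Per length of the longest coding transcript (GENCODE M21, GRCm38), Kif22 had the highest level of the group at 52.1 ± 14.6 CPM per kb (SD, n = 4 experiments). Kif22 lies at chr7:127027729-127042471 on the minus strand. It was followed by Kif20a, on chromosome 18, at 37.7 ± 12.9 CPM per kb, Kif23 (chr9:61915905-61946774, minus strand) at 29.5 ± 6.68 CPM per kb and Kif11 (chr19:37376403-37421859, plus strand) at 29.2 ± 17.9 CPM per kb. Neighbours in this order differ by less than their spread down to Kif2c, and by more from there on. Kif15 (chr9:122951046-123018733, plus strand) and Kif20b (chr19:34922361-34975745, plus strand) had 15.4 ± 5.74 and 15.4 ± 6.18 CPM per kb, and Kif2c (chr4:117159639-117182639, minus strand) had 14.6 ± 2.12 CPM per kb. The level of Kif4 (chrX:100625737-100727214, plus strand) was 9.10 ± 2.69 CPM per kb. At the low end, Kif18b (chr11:102905529-102925124, minus strand) had 5.08 ± 1.51 CPM per kb and Kif14 (chr1:136466343-136531511, plus strand) 1.45 ± 0.513 CPM per kb.

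All 10 kinesins had their highest level in cells that the authors called G2M, in each of the 4 experiments. The phase was called from transcripts, possibly including these genes, so the levels by phase are a description and carry no test. Among the cytokinesis motors, Kif20a had 0.0395, 12.4, 11.3 and 8.07 CPM in G1 cells of experiments 1, 3, 4 and 5, 64.2, 75.5, 127.6 and 61.1 CPM in S cells and 286.9, 449, 407 and 452 CPM in G2M cells. Kif23 had 8.48 to 17.5 CPM in G1, 50.3 to 69.7 CPM in S and 220 to 345 CPM in G2M. For both genes the ranges of the 3 phases did not overlap. Kif20b had 5.18 to 34.03 CPM in G1 and 87.2 to 377 CPM in G2M. Its G1 level was above those of Kif20a and Kif23 in experiments 1, 4 and 5 and below both in experiment 3. Kif14 had no count in G1 cells of experiments 1, 3 and 4 and 5.85 CPM in experiment 5, and 19.04 to 36.01 CPM in G2M. Its S range of 5.09 to 25.6 CPM overlapped that of G2M.

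Among the spindle motors, Kif11 had 2.17, 2.11, 5.46 and 13.6 CPM in G1, 53.4, 62.3, 150 and 280 CPM in S and 230.8, 159.3, 420 and 585 CPM in G2M. The increase from S to G2M was seen in each experiment, although the S level of experiment 5 exceeded the G2M level of experiments 1 and 3. Kif15 stood at 4.24 to 17.8 CPM in G1, 32.7 to 153.1 CPM in S and 115.8 to 215.6 CPM in G2M. The depolymerase Kif2c had at most 0.981 CPM in G1, 12.0 to 29.4 CPM in S and 120 to 195.5 CPM in G2M. Kif18b had at most 0.701 CPM in G1, 9.27 to 10.5 CPM in S and 34.1 to 80.4 CPM in G2M. The chromokinesin Kif22 had 0.868 to 47.8 CPM in G1, 72.7 to 118.5 CPM in S and 178.02 to 356 CPM in G2M. Kif4 had 0.894 to 8.47 CPM in G1, 20.6 to 56.9 CPM in S and 63.4 to 180 CPM in G2M.

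On a log2(CPM + 1) scale the mean difference between G2M and G1 was largest for Kif2c (6.85), Kif20a (5.97), Kif11 (5.81) and Kif18b (5.45). It was smallest for Kif20b (3.35). The median over the 10 genes was 4.56. It was 5.64 on a log2 CPM scale without the added 1 CPM, with levels under 3 counts set to 3 counts. Over all genes at 20 CPM or more the medians were between -0.10 and 0.00 in the 4 experiments, and 20.9%, 10.5%, 10.1% and 11.4% of genes were at least 2-fold higher in G2M in experiments 1, 3, 4 and 5. Between G2M and S the mean difference was 2.87 for Kif2c, 2.31 for Kif20a, 2.28 for Kif18b and 2.22 for Kif23, and 1.12 for Kif15 and 1.11 for Kif14. Kif15 and Kif14 thus had more of their G2M level already in S cells than Kif2c had. Other kinesins with spindle roles gave a median of 3.55 over 4 of 5 genes at 20 CPM or more, including Kifc1 (4.87), a minus-end motor, Cenpe (3.86), a kinetochore motor, and Kif18a (3.25), which limits chromosome movement, but 0.19 for Kif2a. Of 26 transport kinesins and light chains only 4 reached 20 CPM, with Kif5b at -0.36, Klc1 at 0.36, Kif21b at -1.07 and Kif3b at -0.24 (median -0.30). Spindle and cytokinesis partners gave 5.01 over 34 genes, all 34 at least 2-fold higher in G2M. Replication genes gave 1.45 over 20 genes, and regulators of G2 and M genes 1.40 over 14. The genes behind the phase calls are not given and may include genes of these lists. The values of the lists, and the differences between them, are therefore a description as well.

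**Figure D1:**
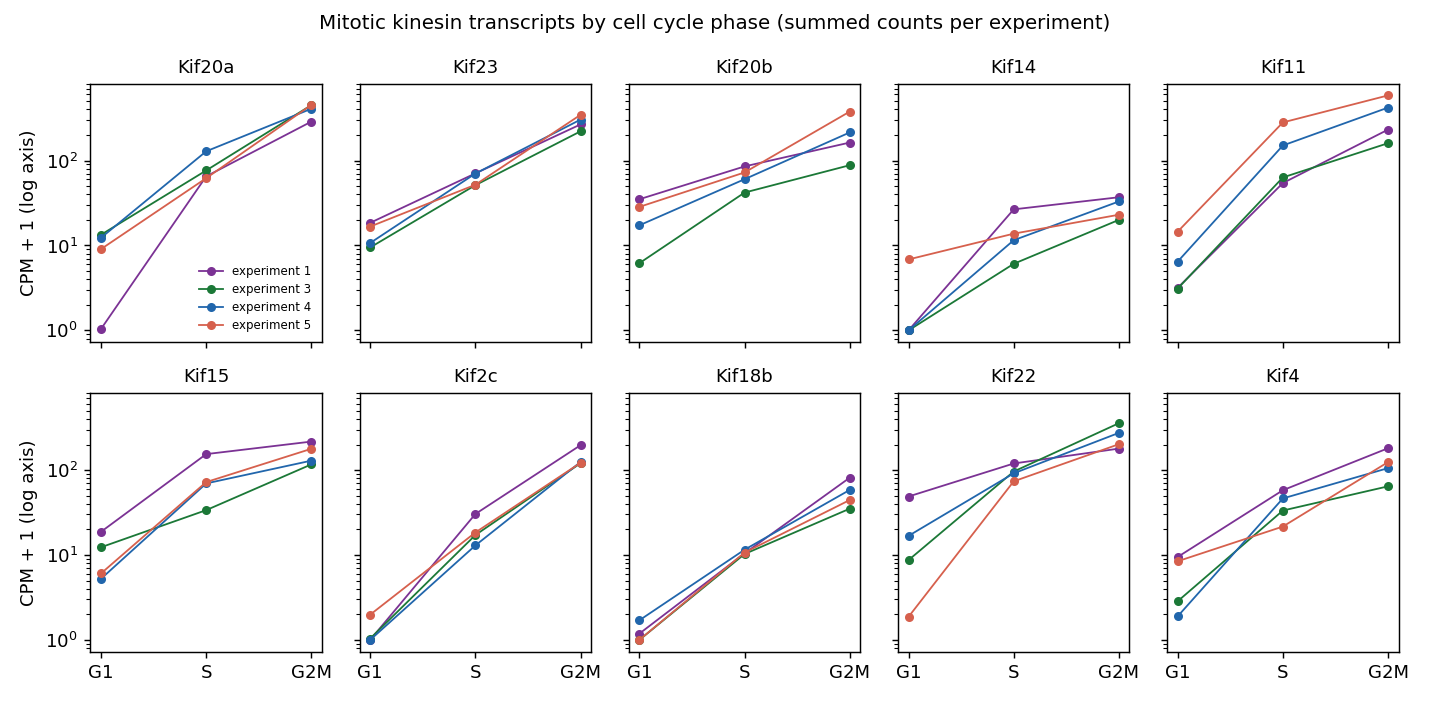
Points give CPM + 1 (log axis) of cells summed by phase (x axis: G1, S, G2M) in each experiment, 1 panel per kinesin, lines joining the sums of an experiment. In all 4 experiments every gene is highest in G2M; Kif20a lies at 286.9 to 452 CPM there.

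Kinesin transcripts in single cells were patchy even in G2M. After each cell was thinned to 20000 counts (12 cells were shallower and left out), at least 1 of the 10 genes was detected in 17.9% of 547 G1 cells, 71.4% of 447 S cells and 98.5% of G2M cells, against 23.9%, 76.3% and 99.4% without thinning. At least 5 of the 10 were detected in 62.05% of G2M cells and 15.4% of S cells (76.8% and 26.4% without thinning). No G1 cell had 5, and a count of 0 among 547 has an exact 95% upper bound of 0.672%. In G2M cells the detection shares were 76.2% for Kif20a, 70.5% for Kif23, 68.1% for Kif22, 65.96% for Kif11, 52.4% for Kif15, 50% for Kif20b, 43.98% for Kif4, 43.4% for Kif2c, 32.2% for Kif18b and 18.4% for Kif14. In G1 cells they were 0.183% to 4.2%. The T cell genes Cd3d and Cd3e, which these cells should lack, were at 2.01% and 2.19% in G1 cells at the same depth. They were at 0% and 0.447% in S cells and at 0.904% and 1.2% in G2M cells. In G1 the values of Kif15, Kif20b, Kif22 and Kif23 were above those of both T cell genes, with exact 95% intervals that overlapped those of Cd3e (1.14% to 3.8%), and those of the other 6 kinesins were at or below them. None of the G1 shares is read as expression. The B cell gene Cd79a was detected in 95.4% of G1 and 99.7% of G2M cells. Between pairs of the 10 genes across G2M cells, the median Spearman rho was 0.083 to 0.135 in the 4 experiments, and the highest was 0.524, for Kif23 with Kif2c in experiment 1. Cells of an experiment share library and depth, and in counts this sparse such correlations are a description only.

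A fluorescent cell cycle reporter (FUCCI) was measured at the sort in experiments 3 and 4, independently of the transcripts. Which reporter protein the intensity came from is not given in the sources used here. Cells were split into tertiles of intensity within each experiment. The median intensity was 6540 arbitrary units in the high and 74 in the low tertile of experiment 3, and 12426 in the high tertile of experiment 4. All 10 kinesins were higher in the high than in the low tertile in both experiments. In experiment 3 Kif11 had 160 against 7.56 CPM, Kif2c 92.9 against 3.31 CPM and Kif20a 302.5 against 75.04 CPM, and Kif14 had 18.3 CPM in the high tertile and no count in the low tertile. Fold values there ran from 4.03 (Kif20a) to 40.4 (Kif18b). In experiment 4 the folds were smaller, from 1.42 (Kif20b) to 5.99 (Kif18b), with Kif11 at 338.1 against 123.3 CPM. The median log2 difference over the 10 genes was 2.95 in experiment 3 and 1.41 in experiment 4. The median over all genes, and the share of all genes higher in the high tertile, were not determined.

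**Figure D2:**
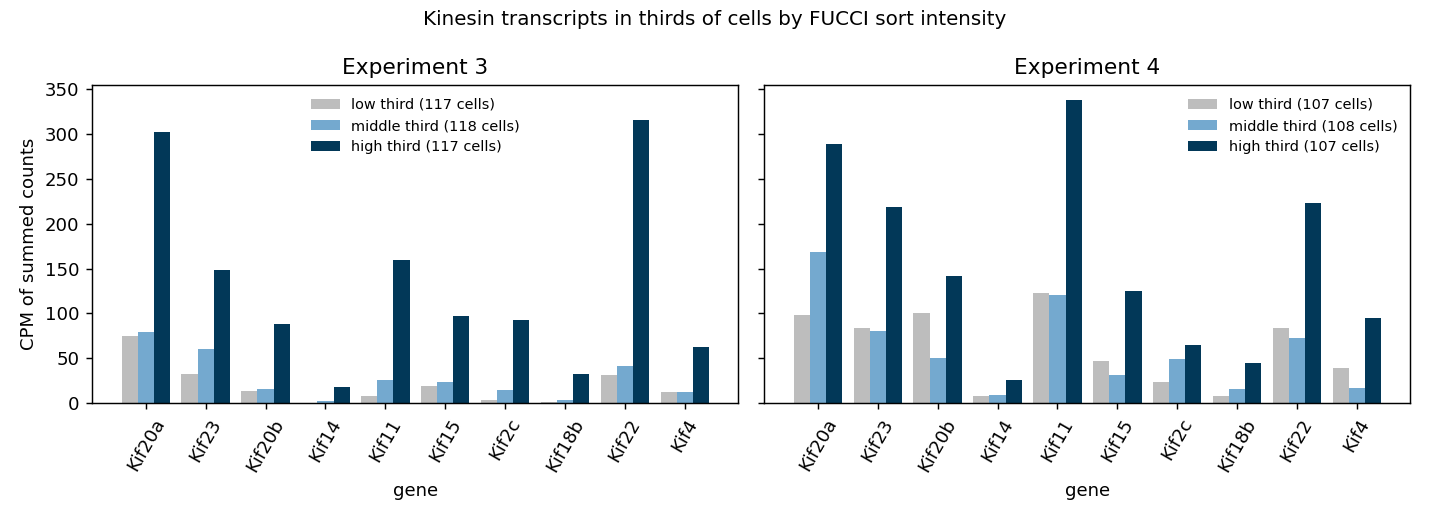
Bars give CPM of summed cells in the low, middle and high tertile of FUCCI sort intensity in experiments 3 and 4, for each kinesin. The high tertile has the highest bar for every gene; Kif22, Kif20a and Kif11 reach the highest CPM.

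Across cells the summed CPM of the 10 genes gave a Spearman rho with intensity of 0.656 over 352 cells of experiment 3 and 0.4934 in experiment 4, and single genes gave 0.383 to 0.618 and 0.290 to 0.498. These correlations are descriptions across cells that share libraries. G1 cells made up few of the high tertile. The high tertile held 0.725% of G1, 38.98% of S and 72.9% of G2M cells in experiment 3, and 3.85%, 38.4% and 56.6% in experiment 4. It held 33.6% of dark and 33.3% of light zone cells in experiment 3, and 32.7% and 35.3% in experiment 4. The G2M shares of the dark and light zone were 31.2% against 18% in experiment 3 and 34.6% against 25.7% in experiment 4.

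No kinesin passed the test between the dark and the light zone in Dec+ cells. The zones were compared over 7 pairs of sums, each pair from the same experiment and time (9302 genes, edgeR quasi-likelihood test with Benjamini-Hochberg adjustment, pairing as block). Over all genes tested, 0.323% were called. Of the 10 kinesins 0 were called, 2 had an unadjusted p under 0.05, and DESeq2 called 1. Among all 9302 genes, 875 had an unadjusted p under 0.05 in edgeR, and DESeq2 called 472. Kif20a had 101.4 to 232.05 CPM in the dark zone (median 184.5) and 58.6 to 190 CPM in the light zone (median 97.2), and was higher in the dark zone in 6 of 7 pairs. Its log2 ratio was 0.85 ± 0.22 (SE), with adjusted p = 0.166 in edgeR, and DESeq2 gave 0.80 with adjusted p = 0.024. With 3 pairs of the genotypes of experiment 5 added, edgeR gave Kif20a 1.08 with adjusted p = 0.018. That fit called 97 of 9248 genes higher and 56 lower in the dark zone. The 3 added pairs were WT, KO and TA cells of 1 experiment, and the 7 pairs were times of 2 experiments. The adjusted p values over pairs therefore do not rest on replication by experiment. With 1 pair per experiment, as given below, Kif20a was at edgeR adjusted p = 0.229. Kif23 had 44.9 to 142.99 CPM (median 109.3) against 6.74 to 96.0 CPM (median 67.3), with 6 of 7 pairs higher in the dark zone and a log2 ratio of 0.92 ± 0.41 (edgeR adjusted p = 0.528). Kif2c had 9.48 to 68.6 CPM (median 52.1) against 1.53 to 49.5 CPM (median 20.2), 6 of 7 pairs and 1.15 ± 0.69. Kif4 had 22.6 to 77.2 CPM (median 37.9) against 6.48 to 61.4 CPM (median 20.6), 6 of 7 pairs and 0.87 ± 0.45. The ranges of both zones overlapped for each of the 10 genes.

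The other 6 genes were less clear in direction. Kif20b was at 0.64 ± 0.38, Kif18b at 0.51 ± 0.74, Kif14 at 0.35 ± 1.09, Kif11 at 0.24 ± 0.40 and Kif22 at 0.05 ± 0.24, each higher in 3 or 4 of 7 pairs. Kif15 was at -0.23 ± 0.35, with a median of 54.1 CPM in the dark and 82.2 CPM in the light zone. The direction of Kif11, Kif14, Kif15 and Kif22 turned when single pairs or experiments were left out. Of the 10 ratios 9 were above 0, as were 64.8% of those of all genes tested. The median of the 10 genes was 0.58 against 0.20 over all genes. It was 0.30 without the 12 h pair of experiment 4, 0.39 without the 46 h pair of experiment 3, 0.38 without experiment 3 and 0.92 without experiment 4. Of the fixed lists, other spindle kinesins had 1 of 4 called, Cenpe (1.07 ± 0.19, edgeR adjusted p = 0.0461). Spindle and cytokinesis partners had 2 of 34 called, both higher in the dark zone. These were Cdc20, an activator of the anaphase-promoting complex (1.19 ± 0.17), and Ccnb2, a mitotic cyclin (1.11 ± 0.16), both with edgeR adjusted p = 0.0157, and the list's median was 0.34. Transport kinesins had 0 of 11 called (Kif9 3.26 ± 2.12, Klc4 2.19 ± 2.36), regulators of G2 and M genes 0 of 14 (Lin9 5.06 ± 1.88, E2f1 -0.99 ± 0.63) and replication genes 0 of 20 (Cdc6 0.50 ± 0.24).

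With times pooled, each experiment gave 1 pair (3 experiments, WT cells of experiment 5, 10089 genes). EdgeR called 0.00991% of genes and 0 of 10 kinesins. An unadjusted p under 0.05 was found for 4 of the 10 kinesins and for 904 of all genes. DESeq2 called 2 of the 10 kinesins and 401 of all genes. Kif20a had 187.8, 202.6 and 176.7 CPM in the dark zone and 86.3, 144.6 and 72.4 CPM in the light zone of experiments 3, 4 and 5. Kif23 had 94.5, 147.2 and 120 CPM against 56.97, 79.1 and 44.1 CPM. Both genes were higher in the dark zone in 3 of 3 experiments. The log2 ratios were 0.95 ± 0.21 for Kif20a (edgeR adjusted p = 0.229; DESeq2 0.93, adjusted p = 0.0052) and 1.01 ± 0.23 for Kif23 (edgeR adjusted p = 0.230; DESeq2 0.99, adjusted p = 0.0099). Kif2c had 48.5, 52.1 and 33.6 CPM against 21.1, 26.96 and 9.47 CPM and a log2 ratio of 1.304 ± 0.39 (edgeR adjusted p = 0.377). Kif15 had 49.1, 63.9 and 62.4 CPM against 45.7, 92.6 and 93.97 CPM and -0.35 ± 0.26. Kif20b was at 0.60 ± 0.22, Kif4 at 0.56 ± 0.33, Kif22 at 0.51 ± 0.26, Kif18b at 0.48 ± 0.52, Kif11 at 0.20 ± 0.15 and Kif14 at -0.05 ± 0.65. The sums of 8 of the 10 genes, all but Kif14 and Kif15, were higher in the dark zone in each of the 3 experiments. In the edgeR fit 8 of the 10 and 54.7% of all genes had a ratio above 0. The share of all genes higher in every experiment was not determined. In this comparison none of the other lists had a called gene.

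The G2M share, given above for experiments 3 and 4, was 29.3% in the dark and 19.5% in the light zone in WT cells of experiment 5 (24 of 82 and 8 of 41 cells), with exact 95% intervals of 19.7% to 40.4% and 8.82% to 34.9%, which overlap. The part of this share in the ratios above was not tested. Among G2M cells alone, with 77 against 18 cells in experiment 3 and 88 against 18 in experiment 4 (9652 genes), edgeR called 0.0104% of genes and 0 of 10 kinesins, with 1 unadjusted, and DESeq2 called 0. The median of the 10 genes was 0.17 against 0.12 over all genes. Kif20a had 490 against 270 CPM and 429 against 313.2 CPM in these experiments (log2 0.63 ± 0.22, edgeR adjusted p = 0.492). In WT cells of experiment 5 it had 549 against 312.9 CPM, with only 8 light zone cells. Kif2c was at 0.71 ± 0.32, Kif4 at 0.56 ± 0.46, Kif23 at 0.52 ± 0.24, Kif18b at 0.21 ± 0.55, Kif11 at 0.14 ± 0.26 and Kif22 at 0.09 ± 0.23. Kif20b was at -0.11 ± 0.28, Kif15 at -0.34 ± 0.38 and Kif14 at -0.35 ± 0.67. The test within G2M rests on 2 pairs of sums.

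Among high tertile cells by reporter intensity, the summed level of the 10 genes was 1414 CPM in 83 dark zone cells and 1109 CPM in 33 light zone cells of experiment 3 (log2 0.35), and 1587 against 1492 CPM in 83 and 24 cells of experiment 4 (0.09). Kif20a had 337.4 against 216.9 CPM and 294.996 against 270 CPM. Kif2c had 111.4 against 53.6 CPM and 67.4 against 55.2 CPM, and Kif18b 37.7 against 21.9 CPM and 50.9 against 22.4 CPM. Kif14 went the other way, at 17.8 against 20.5 CPM and 16.99 against 54.04 CPM. No test was made, since each value is 1 sum.

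**Figure D3:**
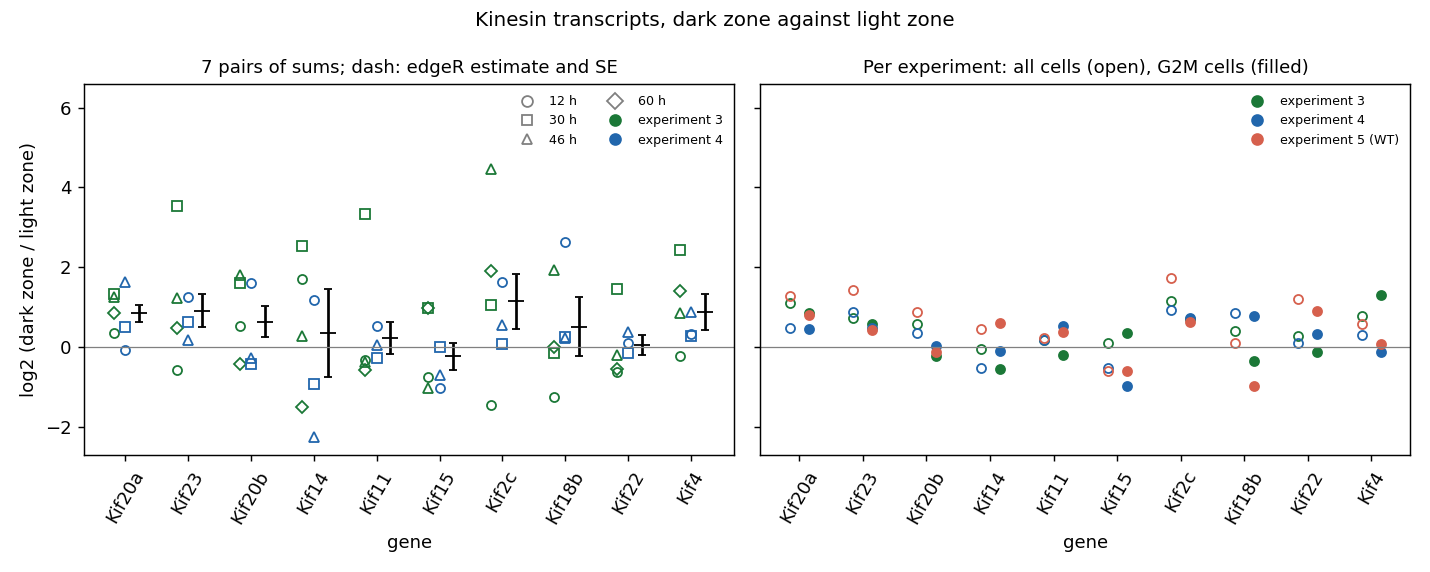
Left, log2 ratio of dark over light zone of each kinesin in each of the 7 pairs of sums (symbols by time, colours by experiment), with the edgeR estimate and its SE as a dash and bar. Right, the ratio per experiment over all cells (open) and G2M cells (filled); for all cells, 8 of 10 genes lie above 0 in each of the 3 experiments, and Kif14 and Kif15 do not.

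Time had no called effect on any kinesin. All 17 sums of Dec+ cells of experiments 1, 3 and 4 entered 1 edgeR fit (11662 genes), with experiment as block. Of all genes, 0%, 0% and 0% were called in the dark zone at 30, 46 and 60 h against 12 h, 0%, 0.472% and 0.12% in the light zone, and 0% when the 12 to 30 h change was compared between the zones (interaction). Of the 10 kinesins edgeR and DESeq2 called 0 in each of these 7 comparisons. At an unadjusted p under 0.05 there were 1, 1 and 0 in the dark zone, 0, 1 and 3 in the light zone and 0 for the interaction. Every other fixed list also had 0 called.

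In the dark zone Kif22 had 53.3, 166.9, 174.8 and 151.7 CPM at 12, 30, 46 and 60 h in experiment 3 and 107.3, 147.9, 161.8 and 116.5 CPM in experiment 4. Both experiments were lowest at 12 h. The log2 ratio was 1.05 ± 0.44 at 30 h and 1.19 ± 0.45 at 46 h, the highest of the 10 genes at both times (edgeR adjusted p = 1 for each). Kif20a had 101.4, 150, 232.05 and 222.5 CPM in experiment 3 and 181.8, 230.9, 184.5 and 204.9 CPM in experiment 4. Kif2c had 9.48, 43.2, 55.02 and 68.6 CPM in experiment 3 but 64.98, 52.1, 19.3 and 68.4 CPM in experiment 4, so the experiments did not show the same course. Kif2c had the highest ratio at 60 h, 1.12 ± 0.96. The lowest ratio was that of Kif14 at 30 and 46 h (-0.79 and -0.80) and of Kif20b at 60 h (-0.33). The median of the 10 was 0.69, 0.36 and 0.66, with 8 of 10 above 0 at each time, against 0.01, -0.01 and 0.03 over all genes. These medians rested on single experiments. Without experiment 3 they were 0.35, -0.16 and 0.070, and without experiment 4 they were 1.41, 1.00 and 1.26. The share of G2M cells in the dark zone moved with time as well, at 13.95%, 25.8%, 41.1% and 36.2% in experiment 3 and 29.1%, 40.3%, 38.9% and 30.8% in experiment 4.

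In the light zone the median of the 10 was 0.08 at 30 h, 0.38 at 46 h and 1.15 at 60 h, against -0.10, -0.30 and -0.27 over all genes. The 60 h value rests on 1 sum of 21 cells in experiment 3. The direction at 30 h turned with the experiment left out, at -0.08 without experiment 1, 0.96 without experiment 3 and -1.06 without experiment 4. At 46 h the median was 0.23 without experiment 1 and 0.64 without experiment 3. The extremes were Kif23 (-0.69) and Kif18b (1.49) at 30 h, Kif2c (-1.58) and Kif14 (1.82) at 46 h, and Kif4 (-0.90) and Kif14 (3.84) at 60 h. Kif23 at 30 h had 6.74 CPM in experiment 3, the lowest of its sums, and 92.1 CPM in experiment 4. For the interaction the median was 0.75 (-0.73 without experiment 3 and 2.38 without experiment 4), with Kif23 highest at 1.39 and Kif14 lowest at -1.18. Kif23 turned to -0.65 without experiment 3, and Kif14 to 7.54 without experiment 4. In experiment 1, where zone and time differ together and the dark zone cells have their own plate, values from 12 h light zone to 30 h dark zone were 26.9 and 197.6 CPM for Kif4, 30.8 and 207.5 CPM for Kif2c, 59.8 and 292.2 CPM for Kif20a, 53.6 and 156.7 CPM for Kif11 and 63.5 and 198.9 CPM for Kif23. The G2M share in these sums was 13.9% and 50%.

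**Figure D4:**
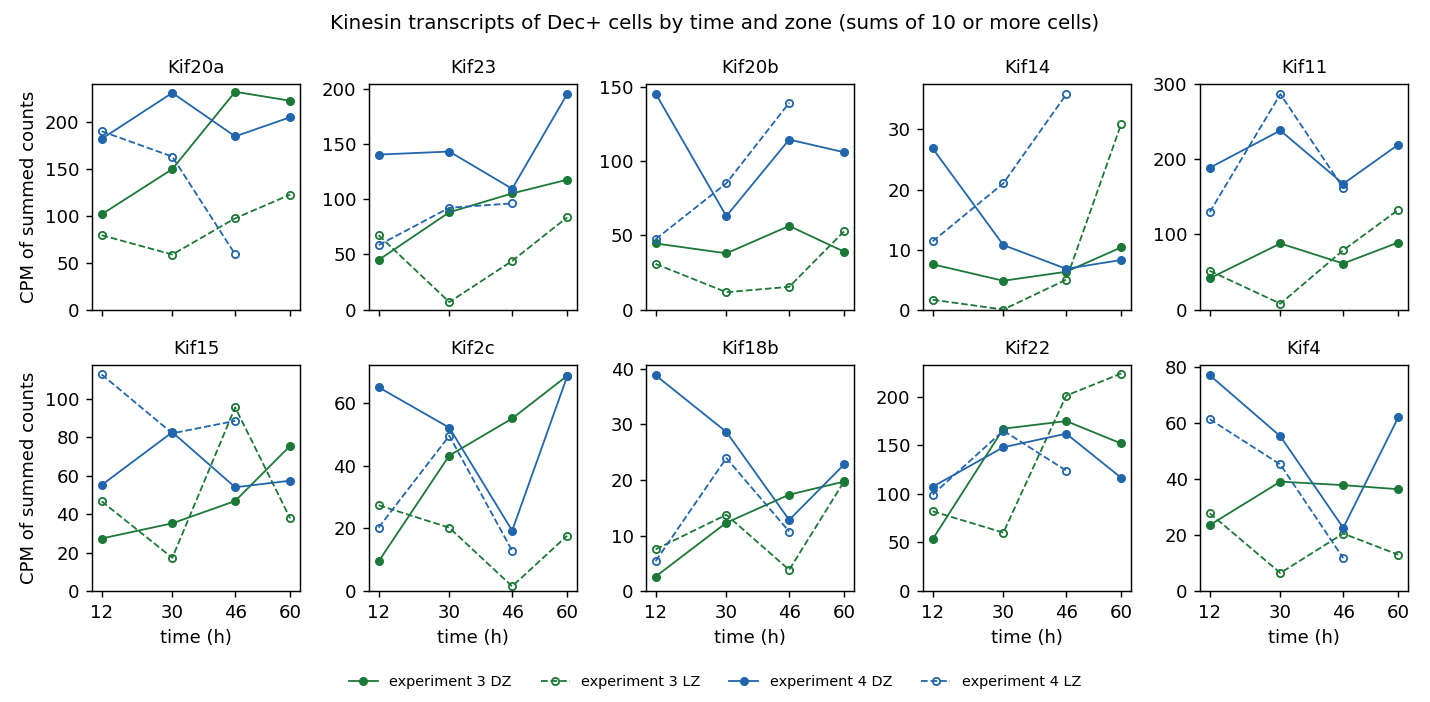
Lines give CPM of summed Dec+ cells (sums of 10 or more cells) against time in h, 1 panel per kinesin, with experiments 3 and 4 in colours, dark zone filled and light zone open. The 2 experiments differ in level and course for several genes; Kif22 in the dark zone is lowest at 12 h in both, at 53.3 and 107.3 CPM.

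Dec+ and Dec- cells could be compared in experiment 1 alone, in the light zone at 12 h (80 Dec- cells, 3 plates), so no test was made and intervals are exact 95% Poisson intervals for counting error, in which PCR reads without molecular identifiers are not independent molecules. Of 6440 genes at 20 CPM or more in either group, 17.7% were at least 2-fold higher and 13.3% lower in Dec+ cells. Of 9 kinesins at that level, 0 were higher and 1 was lower by this measure, and the median was -0.21 against 0.07 over all genes. The 1 gene was Kif4, with 26.9 CPM (26.05 to 27.8) in Dec+ and 92.2 CPM (89.6 to 94.9) in Dec- cells, a log2 ratio of -1.74. It was lower on each of the 3 plates, with 26.1, 32.8 and 21.8 CPM against 78.1, 108.1 and 83.7 CPM. With each cell given equal weight the ratio was -0.69, short of 2-fold. Kif11 had 53.6 against 56.2 CPM, Kif20a 59.8 against 41.1 CPM, Kif15 119.4 against 83.003 CPM, Kif18b 12.5 against 23.05 CPM and Kif23 63.5 against 90.5 CPM. Their direction differed between plates. Without plate 1 the median was 0.58 and 2 genes were higher, and without plate 2 or 3, 2 were lower.

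The genotypes of experiment 5 were compared without test, since the experiment is 1. Ccnd3, the gene named on the plates, was lower in KO than in WT cells, at 89.3 against 477 CPM in the dark zone and 78.6 against 350 CPM in the light zone, and stood at 287.3 and 118.9 CPM in TA cells. The comparisons of KO and of TA share the WT cells. In the dark zone (82 WT and 62 KO cells), 11.6% of 7054 genes were at least 2-fold higher and 15.9% lower in KO. Of 8 kinesins at 20 CPM, 0 were higher and 3 lower by this measure, none of the 8 had a ratio above 0, and the median was -0.74 against -0.16 over all genes. Kif15 had 17.2 CPM in KO and 62.4 CPM in WT (log2 -1.80). It was lower on each of the 4 plates, at 0.483, 28.1, 22.1 and 17.9 CPM against 25.7, 76.5, 63.6 and 72.1 CPM. Kif20a had 80.3 against 176.7 CPM (-1.13), lower on 3 of 4 plates. Kif22 had 36.04 against 76.3 CPM (-1.06) and Kif23 64.4 against 120 CPM (-0.89), both lower on 4 of 4. Without plate 4 only 1 gene, not 3, passed 2-fold. Kif11 had 168.5 against 222.9 CPM, Kif20b 96.1 against 146.4 CPM, Kif2c 27.9 against 33.6 CPM and Kif4 31.4 against 43.2 CPM, with plates split in direction.

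TA dark zone cells were closer to WT or above it. There 8.12% of 6856 genes were at least 2-fold higher and 10.2% lower, and 0 of 8 kinesins passed either fold. Of these 8, 7 had a ratio above 0, with a median of 0.57 against -0.03 over all genes. Kif11 had 384 against 222.9 CPM (0.78) and Kif22 127.2 against 76.3 CPM (0.73), both higher on 4 of 4 plates. Kif15 had 99.9 CPM, Kif23 167.1 CPM, Kif2c 60.6 CPM and Kif20a 201.7 CPM, each higher than in WT in the sum but not on all plates. Kif15 and Kif2c were higher on 3 of 4 plates and Kif23 on 2 of 4. Kif20a was higher on 1 of 4 plates, with 501.1 CPM there, and lower on 3.

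Cell cycle phases moved with genotype. In the dark zone G1, S and G2M shares were 46.3%, 24.4% and 29.3% in WT, 77.4%, 3.23% and 19.4% in KO and 22.8%, 45.5% and 31.7% in TA. Within dark zone G2M cells the summed level of the 10 genes was 2210 CPM (2161 to 2260) in WT, 2427 CPM (2356 to 2499) in KO and 2823 CPM (2780 to 2866) in TA. In S cells it was 747 CPM (717 to 778) in WT and 759 CPM (741 to 777) in TA. KO had 2 S cells, too few for a value. Values in brackets are exact Poisson intervals for counting error, as for the Dec+ and Dec- cells. They do not measure the spread between cells or plates, and differences between genotypes within a phase were not tested. In KO the G2M level of Kif15 was 86.5 CPM against 95.7 CPM in WT, that of Kif22 181.7 against 176.6 CPM, that of Kif23 313.7 against 286.5 CPM and that of Kif20a 319.3 against 549 CPM. Within G2M cells Kif14 was also lower in KO, at 10.3 against 22.9 CPM. Kif11 was higher in KO, at 691 against 498 CPM, as were Kif20b (484 against 357 CPM), Kif2c (140.6 against 93.98 CPM), Kif4 (145.4 against 83.7 CPM) and Kif18b (54.1 against 46.7 CPM). The KO values rest on 12 cells. Of all genes 15.9% were lower by 2-fold or more in KO dark zone cells (median -0.16). Of the fixed lists, replication genes had 19 of 20 lower (median -1.65), partners 15 of 33 (-0.92), regulators of G2 and M genes 6 of 9 (-1.25), other spindle kinesins 1 of 3 (-0.96) and transport kinesins 2 of 5 (-0.01). Transport kinesins also had 1 of 5 higher.

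In the light zone (41 WT, 61 KO and 22 TA cells) 18.3% of 7325 genes were at least 2-fold higher and 16.6% lower in KO, and 19.1% and 23.5% of 7119 genes in TA. In KO, 0 of 7 kinesins at 20 CPM were higher and 2 lower by 2-fold or more. These were Kif11, with 65.4 against 188.3 CPM (-1.51), lower on 4 of 4 plates, and Kif4, with 11.9 against 28.8 CPM (-1.21). Kif20b and Kif23 were higher on 4 of 4 plates, at 106.6 against 79.3 CPM and 65.9 against 44.1 CPM, but less than 2-fold in the sum. Without plate 1 or without plate 4, 4 genes were lower by 2-fold or more. In TA, 1 of 7 was higher and 2 lower. Kif20b had 194.9 against 79.3 CPM (1.29), of which 1 plate had 1060 CPM, and without that plate the ratio was -1.83. Kif15 was at 27.3 against 93.97 CPM (-1.74) and Kif23 at 18.1 against 44.1 CPM (-1.24). The number lower ran from 1 to 6 when single plates were left out. Kif14 and Kif2c had no count in the 22 TA cells, where 3 counts are 0.820 CPM, and 9.09 and 9.47 CPM in WT. G2M shares were 19.5% in WT, 11.5% in KO and 9.09% in TA, which is 8, 7 and 2 cells.

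**Figure D5:**
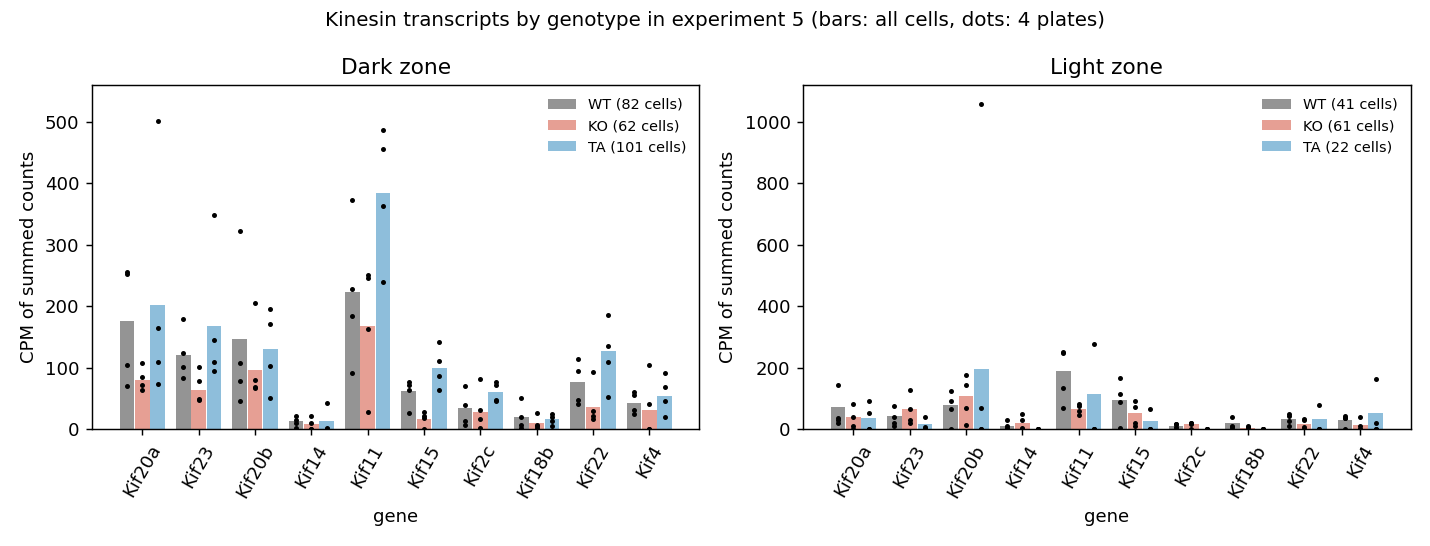
Bars give CPM of summed WT, KO and TA cells in the dark and the light zone of experiment 5, and dots the 4 plates, for each kinesin. In the dark zone KO bars lie below WT bars for all 10 genes; in the light zone 1 TA plate has 1060 CPM of Kif20b.

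Among the 5 genes with the pattern most like the mean of the 10 kinesins over the 15 sums of experiments 3 and 4 (log2 CPM, centred within experiment, 6145 genes) were Tpx2 (Pearson r 0.947), Top2a (0.917), Plk1 (0.907) and Rrm1 (0.897). The sums share their cells' libraries, and the correlations are a description. Of the 10 themselves, Kif23 followed the mean of the other 9 most closely (0.875), followed by Kif11 (0.788), and Kif15 least (0.267).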

How the data were processed

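Per the file headers and values, the deposited tables hold expected counts of each gene in each cell, without normalization by the authors. Tools named in the submitters' processing notes, with no step given, are STAR 2.6, RSEM 1.3.1 and Seurat 3.1.4, and the build is mm10. The deposited tables of cells add the percent of mitochondrial reads, a score for S and for G2M set by the authors, the deposited sort intensity of FUCCI (no stated unit), and other deposited annotations such as phase and zone. Cells numbered 166 Dec+ light zone in experiment 1, 353 in experiment 3 and 324 in experiment 4. Dark zone TA cells numbered 101, and G2M cells after thinning 332. FUCCI tertiles held 117, 118 and 117 cells of experiment 3 and 107, 108 and 107 of experiment 4. DESeq2 called 136 genes at 46 h in the dark zone, 118 at 30 h in the light zone, 153 for the interaction and 173 within G2M cells.

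Of 1220 columns of 1 table, 255 of experiment 2 matched no single well and were not used. The time of the dark zone cells of experiment 1 was taken as 30 h, as in the labels, although a column of groups gave 36 h. Counts were summed by experiment, time and zone (at least 10 cells) and rounded. They were scaled by TMM, filtered by filterByExpr and tested by edgeR 4.0.16 (R 4.3.3) with Benjamini-Hochberg adjustment over all genes, threshold 0.05, and by DESeq2 1.42.0 as an alternative. P values measure the spread between these sums, since no animal is named. The block was the pair of zones, or the experiment. Sums that came from 1 experiment deviated together from their group means at r from 0.038 to 0.280 over 43 pairs (median 0.105). Groups of 1 experiment were compared without test, by CPM with a pseudocount of 1 CPM and a minimum of 20 CPM. The scripts were tested on simulated data. All 10 kinesins were to be named in every comparison. They are in the zone comparisons, while the time comparisons give the extremes and the untested comparisons a part of the 10. Lists give the genes called or the 2 with the largest ratio in the main zone comparison and counts elsewhere. The kinesins and lists were chosen with earlier results of these data known. Some genes that the rule for named genes selects are not reported here.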

Additional observations from a re-analysis of the deposited data

Results flagged for a closer look

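Within 50 groups of 4 or 7 sums, the gap between the highest or lowest value and its neighbour was compared with the range of the group. For normally distributed values chance meets this rule in about 1 in 20 groups. The rate for CPM values was not determined, and a group with 3 sums at 0 and 1 above 0 always meets the rule. Kif14 in the dark zone had 26.9 CPM in 1 of 7 sums (experiment 4, 12 h), with the next at 10.7 CPM. Kif14 in G1 cells had 5.85 CPM in experiment 5 and none in the other 3 experiments. Kif2c in G1 cells had 0.981 CPM in experiment 5, with the next at 0.037 CPM. Kif2c in G2M cells had 195.5 CPM in experiment 1, with the next at 123.6 CPM.

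For 3 genes both experiments moved one way in the dark zone and the opposite way in the light zone, on the log2(CPM + 1) scale. Each kinesin was checked for this at 30 and at 46 h. How often chance meets this rule, and the share of all genes that meet it, were not determined. The difference per gene was not tested except for the change to 30 h, which the interaction did not call. From 12 to 30 h Kif15 changed by 0.35 and 0.57 in the dark zone and by -1.38 and -0.45 in the light zone of experiments 3 and 4. Kif20a gave 0.56 and 0.34 against -0.43 and -0.22. From 12 to 46 h Kif14 gave -0.23 and -1.84 against 1.18 and 1.58.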

How the results depend on the processing

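Over all comparisons and alternatives, 30 of the values that answer a comparison were labelled as moved, and the others were not. Counts of called kinesins have no spread of their own, so the label did not always rest on one. The SD of the median over replicates was 2.20 for the interaction and 1.51 at 30 h in the light zone. A change of sign can lie within such a spread, so a value without the label is not thereby stable. The median of the 10 genes turned in sign under some alternatives at 46 h in the dark zone (-0.16 to 1.00), at 30 h in the light zone (-1.06 to 0.96), for the interaction (-0.73 to 2.38), in Dec+ cells and in TA light zone cells. Between zones it ran from 0.30 to 0.92, and at 60 h in the dark zone from 0.070 to 1.26. For single genes and gene counts 519 were kept, 46 moved, 17 turned and 4 became called. DESeq2 called 1 kinesin between zones over pairs and 2 over experiments, against 0 in edgeR. With the 3 pairs of experiment 5 (WT, KO and TA) edgeR called 1. The number of genes called over pairs was 30 and from 0 to 472 over the alternatives (1 without the replicate block). It was 1 by experiment (0 to 401) and 1 within G2M cells. DESeq2 called 91 and 98 genes in the dark zone at 30 and 60 h and 1055 and 604 in the light zone at 46 and 60 h, against 0, 0, 55 and 14 by edgeR. Replicate numbers in the labels pair no sums, so the block is the pair of zones or the experiment.

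Without the replicate block the log2 ratio of Kif14 was -0.56 between zones, 0.30 at 30 h in the dark zone and 0.38 for the interaction, and the median of the 10 was 0.054 at 46 h and 0.25 at 60 h in the light zone. Left-out pairs or experiments gave -0.75 to 1.38 for Kif14, -0.16 to 0.39 for Kif11, -0.18 to 0.16 for Kif22 and -0.59 to 0.032 for Kif15 between zones, where sums of at least 20 cells gave 0.037 for Kif15. They gave -0.32 to 0.22 for Kif14 by experiment, 0.35 to 1.41 for the median at 30 h in the dark zone, -2.87 to 0.82 for Kif23 at 30 h in the light zone, and -0.65 to 4.29 for Kif23 and -2.16 to 7.54 for Kif14 in the interaction. With all genotypes of experiment 5 the median within G2M cells was 0.42. The cause of these differences was not tested.

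Without single plates, 0 to 2 kinesins were higher and 1 to 2 lower in Dec+ cells (median -0.64 to 0.58), 1 to 4 were lower in KO dark zone cells and 0 to 1 higher in TA dark zone cells. In the light zone 0 to 1 were higher and 2 to 4 lower in KO, and 1 to 2 higher and 1 to 6 lower in TA (median -4.05 to 0.093, Kif20b -1.83 to 2.19). With equal weight per cell 0 were lower in Dec+, 1 was higher in TA dark zone and 6 were lower in TA light zone cells, and 5 were lower there with no minimum CPM. Thinned to 10000 counts, 9.38% of S cells and 54.2% of G2M cells had at least 5 kinesins. Within G2M no experiment could be left out (no residual degrees of freedom). No value could be had at 46 h in the light zone with sums of 20 cells or at 60 h without experiment 3.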
